A study of Mus musculus with 12 samples.

Results

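The genes described here encode the protein subunits of the mitochondrial ribosome, measured by bulk RNA sequencing of sorted mouse neutrophils during acute liver injury. They were taken by name and by level: every protein-coding gene of the GRCm38 annotation whose symbol is Mrpl or Mrps followed by a digit, with more than 1 CPM (a count scaled to the total on genes) in at least 3 of the 12 libraries. Of 78 annotated genes of this name, 48 passed, among 12488 genes tested in all. They comprised 34 of 51 genes of the large subunit and 14 of 26 of the small subunit. Mrps18a and Mrps30 are counted with the large subunit, in which their products sit despite their names, and Mrps36, whose product is now counted among the metabolic enzymes rather than the ribosome, did not pass. The 30 genes left out had at most 15 counts over all libraries, and 4 of them had none in any library. The level filter lets a gene in through the group where it is high, so the 48 are the measured genes and not the whole family.

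The animals were male C57BL/6N mice of 8 to 10 weeks. Carbon tetrachloride, a solvent that hepatocytes convert into a toxic radical, was given once into the peritoneum at 1 mL/kg in corn oil, and neutrophils were taken from the liver 24 hours later (4 libraries) or 72 hours later (5 libraries). Control splenic neutrophils came from untreated mice (3 libraries), and all groups shared the same strain, sex and sort (Ly6G-high, Ly6C-intermediate, CD11b+, CD45+, at over 95% purity). Livers were digested with enzymes and spun on Percoll whereas spleens were dissociated mechanically, so organ, injury and preparation cannot be told apart in either comparison with the spleen, and the same 3 control libraries serve both comparisons. The labels do not say that each library came from a separate animal, and the p-values measure the spread between libraries.

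Mitochondria keep their own small genome, which encodes core subunits of the respiratory chain and of ATP synthase together with the ribosomal and transfer RNAs needed to make them. All proteins of the mitochondrial ribosome are encoded in the nucleus and imported. The small subunit holds the messenger RNA and reads its codons, and the large subunit joins the amino acids. Mature neutrophils contain few mitochondria and draw most of their ATP from glycolysis.

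Libraries held 1267089 to 3017403 counts on genes, so that 1 CPM was 1.27 to 3.02 counts. Only 2.71% to 3.18% of the uniquely aligned reads of a library were assigned to a gene. The libraries were made with a strand-preserving kit, the strand setting of the counter is not given in the sources used here, and for this reason the genes were also split by whether their exons overlap an annotated gene on the opposite strand. An overlap of this kind was present for 21 of the 48 genes (43.8%) and for 49.4% of all tested genes, and 27 had none. Libraries that stood apart were 72-hour replicates 2 and 3, with 1.98% or less of reads unaligned against 49.6% to 50.7% in the other libraries, 24-hour replicate 4, with 147308 ambiguous reads against 35212 or fewer, and spleen replicate 3, which differed most from its group. All 10 neutrophil markers were detected, with a summed level of 1906 to 7368 normalized CPM in the spleen (median 7332), 1173 to 2798 at 24 hours and 2118 to 2810 at 72 hours. By the edgeR test given below, 2 of the 10 were lower at 24 hours and 4 at 72 hours than in spleen, and none was higher. Over all genes 9.75% and 5.33% passed in either direction. Hepatocyte markers summed to at most 0.362, 1.46 and 13.9 normalized CPM in the 3 groups, with Ttr and Cyp3a11 at 0 throughout. Normalized CPM in the following are CPM after TMM scaling.

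A pair of genes held most of the signal. Of the 53863 counts on the 78 annotated genes, 82.9% fell on Mrps25 and Mrpl48 (78.1% to 89.2% in single libraries), and the 32 annotated genes with an opposite-strand gene held 97.4%. Per kilobase of exon the mean level over the 12 libraries was 156 normalized CPM for Mrps25, 96.7 for Mrpl48, 42.7 for Mrps7, 27.0 for Mrpl49, 14.6 for Mrpl43 and 13.2 for Mrpl24, down to 0.0919 for Mrpl15. The 7 highest genes all overlapped a gene on the other strand. Mrps21, a small-subunit protein related to bacterial bS21, came eighth at 10.2 and was the highest of the genes without such a neighbour. Median levels per kilobase were 2.18 normalized CPM for the genes with and 0.596 for those without an opposite-strand gene. In counts, 36 of the 48 genes averaged under 10 per library and 32 were at 0 in at least 1 library, so most of the family was measured close to the counting limit.

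**Figure D1:**
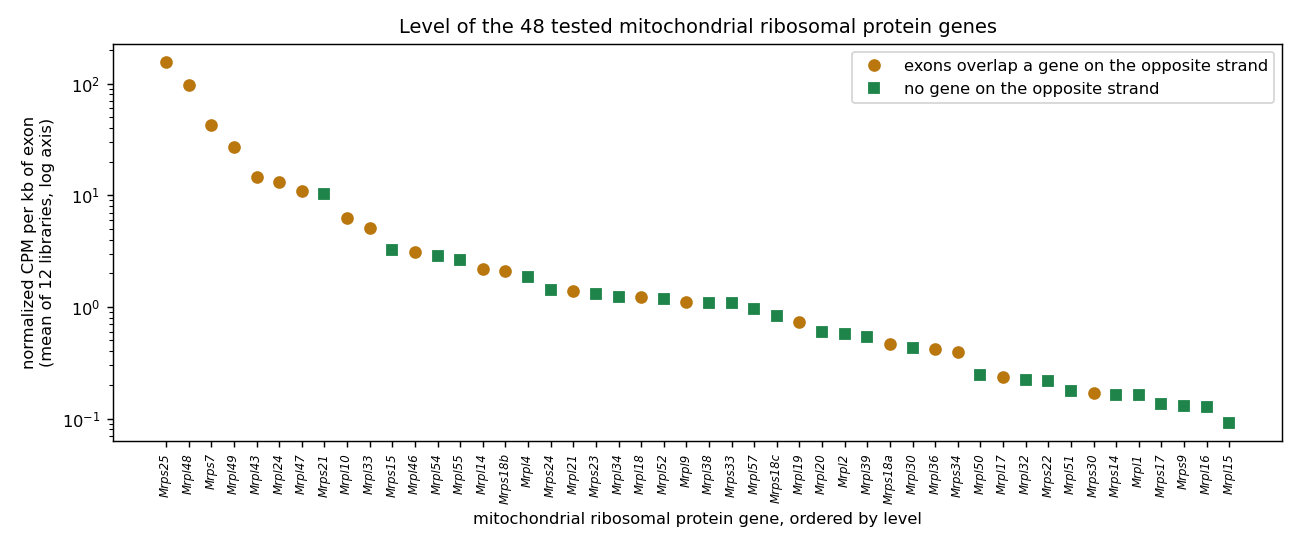
Mean normalized CPM per kilobase of exon of each of the 48 mitochondrial ribosomal protein genes (log axis), in order of level, with the genes that overlap an annotated opposite-strand gene marked apart from the others. Mrps25 (156) and Mrpl48 (96.7) stand above the rest, and the first 7 genes all have an opposite-strand neighbour.

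Mrps25 encodes a small-subunit protein found in mitochondria and not in bacteria, and lies on the minus strand at chr6:92169525-92184033 (GRCm38, ENSMUSG00000014551.8). Its normalized CPM were 850, 926 and 1187 in spleen, 1102, 1071, 1089 and 1278 at 24 hours, and 905, 1164, 1270, 771 and 705 at 72 hours. The 3 groups overlapped, and no comparison passed (log2 fold change 0.20, SE 0.22, edgeR adjusted p = 0.609 at 24 hours, and -0.04, adjusted p = 0.968, at 72 hours, both against the spleen). Mrpl49, a large-subunit protein, had 54.7, 39.1 and 58.8 normalized CPM in spleen, 59.9, 45.0, 71.4 and 59.1 at 24 hours, and 65.6, 33.5, 33.7, 35.4 and 51.3 at 72 hours. Mrpl43, also of the large subunit, had 24.1, 23.2 and 24.4 in spleen, 23.3, 26.4, 26.9 and 21.2 at 24 hours, and 9.76, 15.2, 26.3, 20.1 and 25.3 at 72 hours. Both overlapped between all groups.

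In the first comparison, 24-hour neutrophils against control splenic neutrophils, 3 of the 48 genes passed the test (6.25%), against 9.75% of all genes tested. To pass, a gene needed a Benjamini-Hochberg adjusted p below 0.05 over all genes in the quasi-likelihood test of edgeR, and a log2 fold change of 0.5 or more in size. Mrps7 rose (1 gene, where 5.35% of all genes rose), and Mrpl24 and Mrps9 fell (2 genes, where 4.4% of all genes fell). Among the 27 genes with no opposite-strand gene 1 passed, Mrps9, against 7.35% of all such genes. At an unadjusted p below 0.05 there were 14 genes (26.2% of all genes reached it), and for 7 genes the 24-hour and spleen libraries did not overlap (22.8% of all genes).

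Mrps7 encodes the counterpart of bacterial uS7, which sits in the head of the small subunit and helps to assemble it (chr11:115603925-115608036, plus strand, ENSMUSG00000046756.10). It had 104, 157 and 130 counts in the spleen libraries, 157, 192, 217 and 201 at 24 hours, and 192, 187, 250, 95 and 135 at 72 hours. As normalized CPM these were 48.2, 56.9 and 41.8 in spleen, 99.0, 115, 153 and 147 at 24 hours, and 104, 64.6, 77.4, 66.0 and 87.6 at 72 hours. Every 24-hour library lay above every spleen library, and the mean went from 49.0 ± 7.58 (SD, n = 3) to 129 ± 25.8 (n = 4), a log2 fold change of 1.39 (SE 0.26, edgeR adjusted p = 0.00173). The 72-hour libraries also all lay above the spleen, at 0.71 (SE 0.25, adjusted p = 0.115), which did not pass.

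Mrpl24, the counterpart of bacterial uL24, a protein that binds early in the assembly of the large subunit, changed in the other direction (chr3:87919506-87923672, plus strand, ENSMUSG00000019710.13). Counts were 89, 130 and 144 in spleen, 23, 37, 37 and 18 at 24 hours, and 46, 57, 126, 54 and 41 at 72 hours. The spleen libraries, at 41.3, 47.1 and 46.3 normalized CPM, were the 3 highest. At 24 hours the values were 14.5, 22.2, 26.2 and 13.1, and at 72 hours 24.9, 19.7, 39.0, 37.5 and 26.6. The mean fell from 44.9 ± 3.16 (n = 3) to 19.0 ± 6.22 (n = 4) at 24 hours, a log2 fold change of -1.24 (SE 0.32, adjusted p = 0.0170). The call was lost without spleen replicate 2 (adjusted p = 0.0663) or without 24-hour replicate 4 (adjusted p = 0.0572).

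Mrps9, the counterpart of bacterial uS9, whose tail reaches the decoding site, was counted at a much lower level (chr1:42851233-42905683, plus strand, ENSMUSG00000060679.14). The spleen libraries held 4, 8 and 6 counts, all 4 of the 24-hour libraries held 0, and the 72-hour libraries held 0, 2, 3, 0 and 1. The 24-hour group was at least 4.51-fold lower than the spleen when set against 3 counts over the whole group (edgeR adjusted p = 0.0436). Only the 3 spleen libraries were over 1 CPM for Mrps9, so it entered the test through the group in which it was high, and its difference from that group is in part fixed by the filter. It no longer passed in 6 of the 9 leave-one-out fits in which it was tested, nor in 11 of 19 alternatives in all, with adjusted p up to 0.136.

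**Figure D2:**
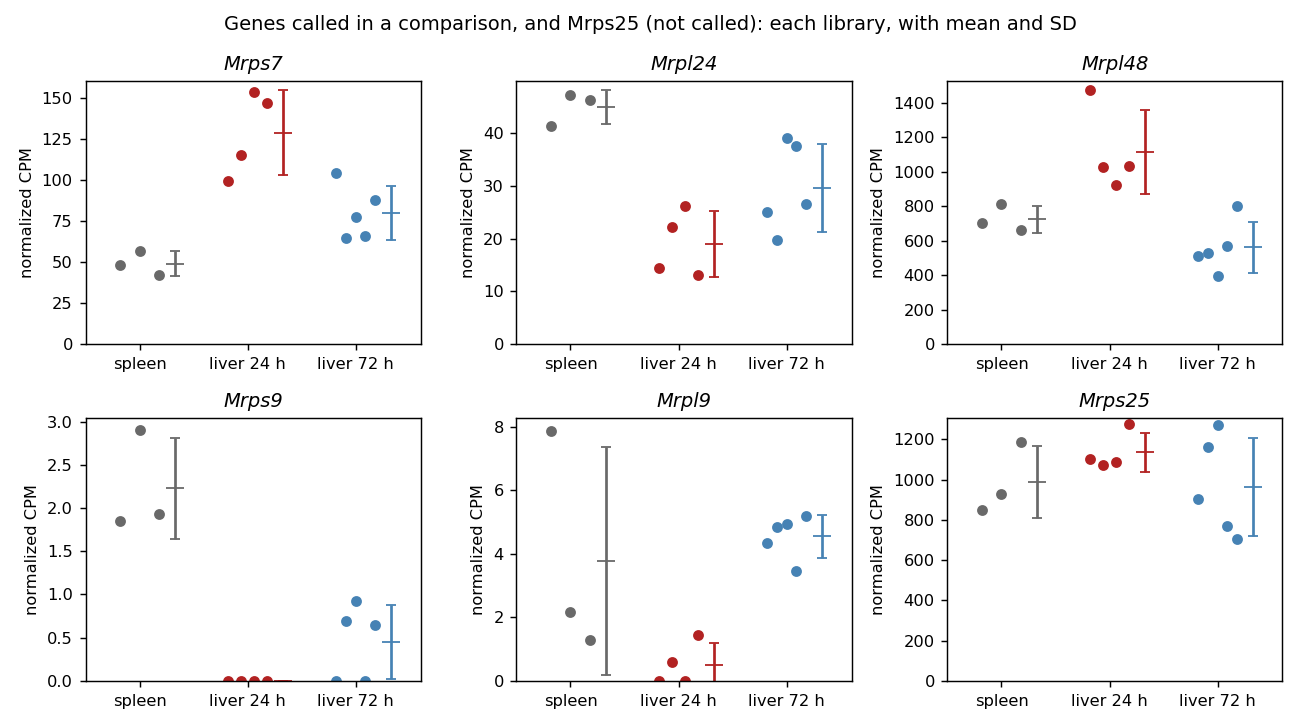
Normalized CPM of the 5 mitochondrial ribosomal protein genes that passed the test in any comparison, and of Mrps25, which did not, with 1 point a library and the group mean and SD, for control splenic, 24-hour and 72-hour neutrophils. Mrps7 lies higher and Mrpl24 lower at 24 hours than in the spleen without overlap, Mrps9 is at 0 in all 4 of the 24-hour libraries, and Mrpl48 and Mrpl9 separate the 72-hour from the 24-hour libraries.

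Among all 48 genes the fitted log2 fold change at 24 hours had a median of -0.64, with 33 below 0, against a median of -0.23 and 58.7% below 0 over all genes tested. Set at their bounds, the genes at 0 in a group brought the median to -0.59. The median was -0.78 for small-subunit genes (9 of 14 below 0) and -0.64 for large-subunit genes (24 of 34). The 29 genes with a bacterial counterpart had a median of -1.35 and 23 below 0, and the 19 without one a median of -0.05 and 10 below 0. Set at bounds, these medians were -1.10 and -0.05. All 4 genes at 0 in a group had a bacterial counterpart. A group with at most 3 counts in every library was present for 16 of the 29 and 5 of the 19, so this split also differs in depth. The part of depth in it was not tested.

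Most of the estimates below 0 belonged to genes with few counts. The 36 genes with under 10 counts per library had a median of -1.16 and 28 below 0 (77.8%). All tested genes of that depth had a median of -0.54 and 65% below 0. With the genes at 0 in a group set at their bounds, these medians were -0.66 and -0.51. The 12 genes with more counts had a median of 0.12 and 5 below 0. The genes free of an opposite-strand neighbour had a median of -1.30 with 21 of 27 below 0, and set at bounds -1.16, where all 6309 tested genes of this kind had a median of -0.44 and 66.7% below 0. The genes with such a neighbour had a median of -0.06 with 12 of 21 below 0. These are descriptions without a test, and the difference between genes with and without a neighbour was not tested.

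**Figure D3:**
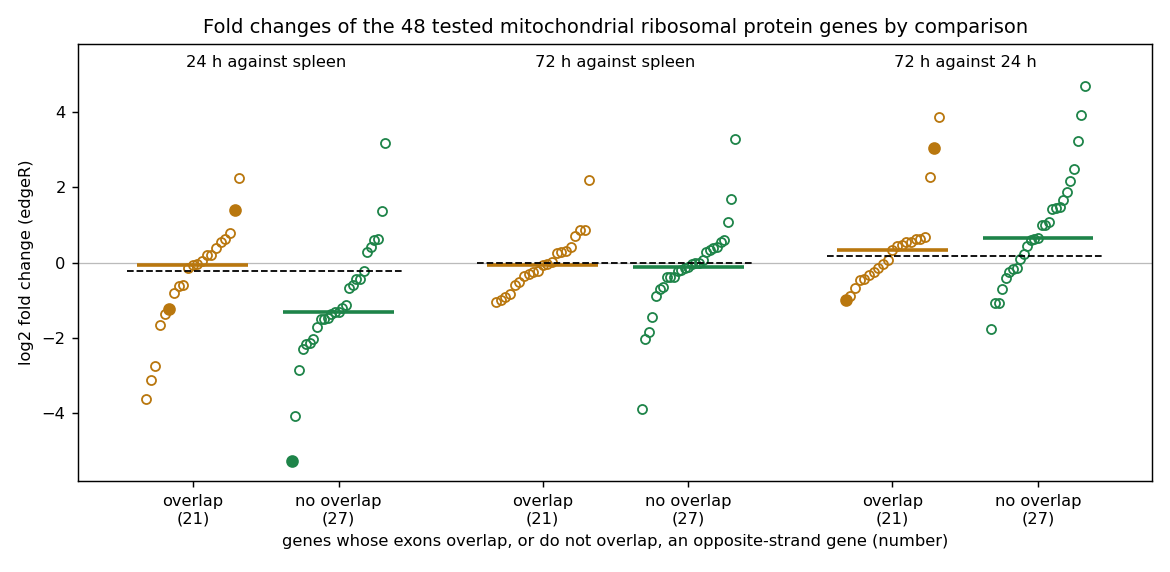
Fitted log2 fold change of each mitochondrial ribosomal protein gene in the 3 comparisons, with genes that overlap an opposite-strand gene drawn apart from those that do not, filled points for genes that passed, solid lines at the group medians and a dashed line at the median of all genes tested. At 24 hours against spleen the genes without an opposite-strand neighbour have a median of -1.30 and the others -0.06, and at 72 against 24 hours the former have a median of 0.65.

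Besides Mrps9, the genes without an opposite-strand gene that came nearest to passing at 24 hours did not pass. Mrps21 had 23, 33 and 16 counts in spleen, 10, 8, 0 and 4 at 24 hours, and 18, 24, 34, 16 and 14 at 72 hours, with a log2 fold change at 24 hours of -1.35 (SE 0.59, adjusted p = 0.150). Mrps15, the counterpart of bacterial uS15, had 21, 18 and 17 counts in spleen, 2, 3, 10 and 0 at 24 hours, and 12, 18, 35, 8 and 8 at 72 hours (24 hours against spleen -1.50, SE 0.68, adjusted p = 0.165, but -2.69 and adjusted p = 0.0250 without 24-hour replicate 3). On the normalized scale 24-hour replicate 3, at 7.07, lay among the spleen libraries for Mrps15 (9.74, 6.52 and 5.47), whereas the other 24-hour libraries were at 1.80 or less. In the other direction, Mrpl52 had 10 counts over the 24-hour libraries and 1 over the spleen libraries, a ratio of 13.3 with a counting interval of 1.89 to 577 (adjusted p = 0.187). Mrpl4 was at 0.62 (adjusted p = 0.583) and Mrps18c at 1.37 (adjusted p = 0.543).

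Summed over the 27 genes with no opposite-strand gene, the level was 56.6, 71.0 and 50.5 normalized CPM in the spleen libraries, 22.7, 37.2, 41.0 and 27.7 at 24 hours, and 64.5, 59.4, 69.9, 43.1 and 44.1 at 72 hours. All 4 of the 24-hour libraries lay below the 8 others, and the spleen and 72-hour libraries overlapped. The sum over all 6309 tested genes of this kind separated in the same way, at 104626 to 113525 normalized CPM at 24 hours. It was 117874 to 119965 in spleen and 117587 to 128049 at 72 hours. The raw sums of the 27 genes were 122, 196 and 157 counts in spleen, 36, 62, 58 and 38 at 24 hours, and 119, 172, 226, 62 and 68 at 72 hours.

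The same sum was also taken in other ways. With all 46 annotated genes of this kind, filtered or not, it ranged over 50.8 to 75.4 normalized CPM in spleen, 25.2 to 42.4 at 24 hours and 45.2 to 75.8 at 72 hours. Without the 3 genes of highest count (Mrps21, Mrps15 and Mrpl4) the ranges were 34.1 to 49.3, 9.46 to 28.3 and 24.7 to 45.5, and 24 hours overlapped 72 hours but not the spleen. As a share of the counts on tested genes without an opposite-strand gene, in CPM, the ranges were 421 to 596, 200 to 392 and 361 to 549, with the same overlap. TMM factors were 0.740 to 0.860 at 24 hours against 1.17 to 1.24 in spleen and 1.03 to 1.14 at 72 hours, and their part in these sums was not tested beyond the raw CPM, which spanned 58.9 to 85.0 in spleen, 17.8 to 32.6 at 24 hours and 45.5 to 74.9 at 72 hours. The number of the 27 genes with at least 1 count was 24, 26 and 21 in the spleen libraries, 10, 16, 12 and 12 at 24 hours, and 21, 24, 23, 12 and 20 at 72 hours.

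**Figure D4:**
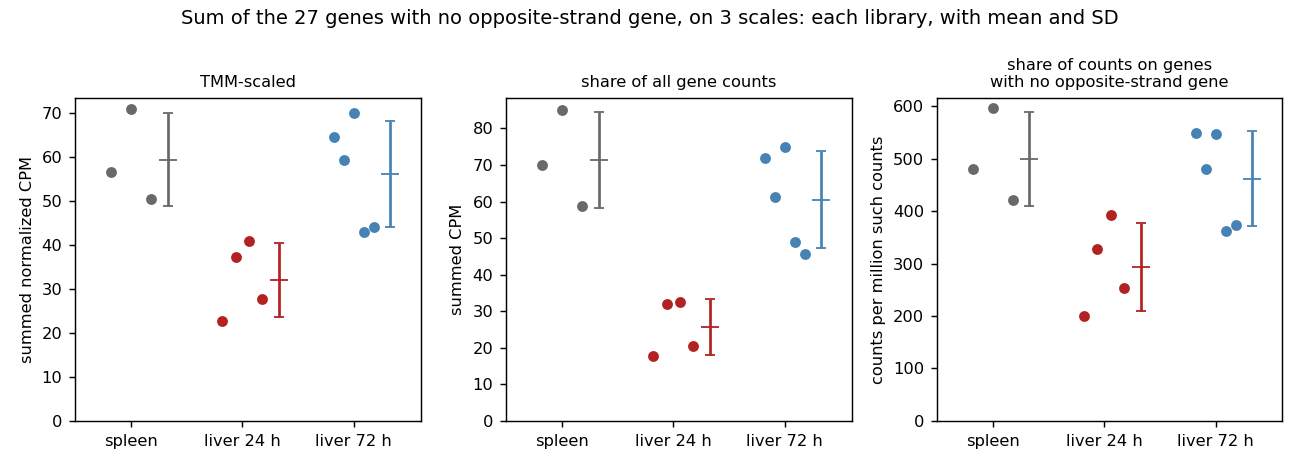
Sum over the 27 mitochondrial ribosomal protein genes with no annotated opposite-strand gene, as normalized CPM, as CPM of all gene counts and as CPM of counts on tested genes with no opposite-strand gene, with 1 point a library and the group mean and SD for control splenic, 24-hour and 72-hour neutrophils. The 24-hour libraries lie below the others in the first panels (at most 41.0 against 43.1 normalized CPM) and overlap the 72-hour libraries in the last (392 against 361).

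The summed markers of immature neutrophils were lower in both liver groups than in spleen without overlap. Their summed level was 2617 to 4849 normalized CPM in spleen, 964 to 1305 at 24 hours and 1002 to 1540 at 72 hours, with Ltf, Camp, Ngp, Lcn2 and Top2a lower in both liver groups by the test, Elane at 0 in all libraries, Mpo at 0 in spleen and at 24 hours, Camp at 0 at 24 hours, and Ctsg at 0 in spleen and at 72 hours. Mki67, a gene of dividing cells, made up most of the liver sums and did not pass, with means of 1128 normalized CPM in spleen, 1035 at 24 hours and 1186 at 72 hours (log2 fold changes of -0.12 and 0.07 against spleen, adjusted p = 0.834 and 0.951), nor did Prtn3 (1.77, adjusted p = 0.292, and 0.17, adjusted p = 0.968). The macrophage markers summed to 94.6 to 131 in spleen, 132 to 187 at 24 hours and 122 to 188 at 72 hours, with Clec4f and C1qa at 0. B cell markers spanned 44.2 to 54.0, 25.5 to 61.2 and 24.0 to 45.2. T cell, erythroid and endothelial markers reached at most 7.07, 5.84 and 11.7. The part of these cells in the values above was not tested, and in bulk samples fewer cells of a type and less RNA per cell cannot be told apart.

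In the second comparison, 72-hour neutrophils against control splenic neutrophils, none of the 48 genes passed the test, against 5.33% of all genes and 4.68% of all genes without an opposite-strand gene. By edgeR 7 genes had an unadjusted p below 0.05 (17.1% of all genes did), DESeq2 called 0 and limma-voom 1. For 5 genes the groups did not overlap, where 12% of all genes did not. The median log2 fold change was -0.09 with 29 of 48 below 0 (all genes -0.02 and 51.3%), and -0.12 with 17 of 27 below 0 among the genes without an opposite-strand gene (51.7% below 0 over all such genes). Mrpl24, with an estimate of -0.60 (adjusted p = 0.310), was among those whose libraries did not overlap.

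Mrpl15, the counterpart of bacterial uL15, came nearest among the genes without an opposite-strand neighbour. It had 3, 8 and 8 counts in spleen, 0, 3, 0 and 0 at 24 hours, and 0, 0, 0, 1 and 0 at 72 hours. Its ratio of spleen to 72 hours was 25.9 with a counting interval of 4.12 to 1077 (edgeR adjusted p = 0.0859), and it was the gene that limma-voom called (-3.04, adjusted p = 0.0204). It also passed in edgeR without 72-hour replicate 4, the library with the single count (-5.34, adjusted p = 0.0454). Only the spleen libraries and 24-hour replicate 2 were over 1 CPM for Mrpl15. It thus entered mainly through the group where it was high, so its difference from spleen is in part fixed by the filter. Mrps33 had 5, 13 and 11 counts in spleen and 3, 2, 2, 2 and 1 at 72 hours (-1.83, SE 0.86, adjusted p = 0.277). Of the genes with higher estimates, Mrpl52 had 1, 0 and 0 counts in spleen against 4, 10, 7, 0 and 1 at 72 hours (adjusted p = 0.235), Mrpl54 had 1, 5 and 3 against 10, 23, 4, 0 and 5 (adjusted p = 0.462), and Mrpl16 had 0, 3 and 0 against 1, 4, 6, 0 and 0 (adjusted p = 0.787).

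In the third comparison, 72-hour against 24-hour neutrophils, which lies within the liver, 2 of the 48 genes passed, against 4.49% of all genes. Mrpl48 was lower (2.84% of all genes were) and Mrpl9 higher (1.65% of all genes were) at 72 hours. The spleen libraries take no side in this contrast, but they enter the filter and the shared estimate of the spread. Both genes overlap an opposite-strand gene, and none of the 27 genes without one passed by edgeR, against 2.76% of all such genes, although Mrps21 was the third gene whose groups did not overlap. An unadjusted p below 0.05 was reached by 13 genes (20.9% of all), and the groups did not overlap for 3 (9.51% of all). The median log2 fold change was 0.51 with 17 of 48 below 0, against 0.18 and 40.9% over all genes, and 0.65 with 8 of 27 below 0 among genes without an opposite-strand gene, against 0.37 and 31.1% over all such genes.

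Mrpl48 encodes a large-subunit protein specific to mitochondria (chr7:100545751-100608301, minus strand, ENSMUSG00000030706.17). Its normalized CPM were 705, 811 and 660 in spleen, 1473, 1031, 926 and 1036 at 24 hours, and 513, 532, 397, 572 and 801 at 72 hours. The 24-hour libraries lay above all the others. The mean fell from 1117 ± 243 (n = 4) to 563 ± 148 (n = 5) between 24 and 72 hours, a log2 fold change of -0.99 (SE 0.20, adjusted p = 0.00822). Against the spleen, 24 hours was at 0.62 (SE 0.23, adjusted p = 0.0962) without overlap and 72 hours at -0.37 (adjusted p = 0.438), neither of which passed. The call between the liver groups was lost without 24-hour replicate 1 (-0.83, adjusted p = 0.0510) and without 72-hour replicates 2 and 3 together (-0.83, adjusted p = 0.0590).

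Mrpl9, the counterpart of bacterial bL9, which reaches out from the base of the L1 stalk, had 17, 6 and 4 counts in spleen, 0, 1, 0 and 2 at 24 hours, and 8, 14, 16, 5 and 8 at 72 hours (chr3:94443318-94451130, plus strand, ENSMUSG00000028140.13). All 5 of the 72-hour libraries, at 3.47 to 5.19 normalized CPM, lay above all 4 of the 24-hour libraries, at 0 to 1.46. The ratio of 72 to 24 hours was 9.37 with a counting interval of 3.03 to 47.0, on 51 against 3 counts, with an edgeR adjusted p of 0.0463. It no longer passed in 11 of 22 alternatives, 8 of them leave-one-out fits, the one without spleen replicate 2 included, with adjusted p up to 0.144. Against the spleen, 24 hours did not pass (adjusted p = 0.0646).

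Estimates of the genes without an opposite-strand gene that came nearest between the liver groups did not pass. These were Mrps21 (1.43, SE 0.54, adjusted p = 0.133), Mrps17, the counterpart of uS17, with 0 counts in each 24-hour library and 0, 2, 5, 6 and 2 at 72 hours (adjusted p = 0.135), and Mrpl30, the counterpart of uL30, with 2 counts at 24 hours and 26 at 72 hours, a ratio of 7.17 with an interval of 1.79 to 62.3 (adjusted p = 0.178). Mrps15 stood at 1.46 (adjusted p = 0.187), and passed at 2.65 (adjusted p = 0.0371) without 24-hour replicate 3. Of the lower estimates, Mrpl2 was at -1.08 (adjusted p = 0.667), and Mrpl15 at -1.75 turned to 1.43 (adjusted p = 0.714) when 24-hour replicate 2, which held all of its 24-hour counts, was left out.

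The genes on the opposite strand were counted as well, in pairs with the ribosomal genes. Over the 21 genes there were 23 such pairs, 11 head to head, 10 tail to tail and 2 with one gene inside the other. Mrps25 shared 4590 exon bases with Nr2c2, a nuclear receptor gene, and was listed with 26244 counts over all libraries where Nr2c2 had 992. Mrpl48 shared 708 bases with Rab6a, a Golgi GTPase gene, with 18418 counts against 1154. Mrpl24 shared 594 bases with Rrnad1 and Mrpl9 157 bases with Oaz3, a testis-specific ornithine decarboxylase antizyme, and there the ribosomal genes had the lower counts, 802 against 10915 and 81 against 1593. Mrps7 shared 127 bases with Gga3 and 119 with Mif4gd and had 2017 counts against 232 and 141. Mrpl49 shared 91 bases with Syvn1, with 1218 counts against 326, and Mrpl43 shared 507 with Twnk, the mitochondrial DNA helicase, with 555 against 7.

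None of the opposite-strand genes tested at these 7 loci passed in any comparison. Rrnad1 was at 0.07 at 24 hours against spleen (adjusted p = 0.876) where Mrpl24 fell, and Gga3 at -0.66 (adjusted p = 0.422) where Mrps7 rose. Rab6a was at -0.38 between 72 and 24 hours (adjusted p = 0.421) where Mrpl48 fell, and Oaz3 at -0.11 (adjusted p = 0.825) where Mrpl9 rose. Nr2c2 was at -0.10 at 24 hours (adjusted p = 0.892). Whether the counts on these loci came from the strand to which they were assigned was not tested, since the files hold no reads. Levels and changes given for these genes are those of the counts listed under each name. Beside them stand the 2.71% to 3.18% of uniquely aligned reads assigned to a gene, from a strand-preserving kit. The mitochondrial gene mt-Nd6, alone on its strand among those listed, was at 1679 normalized CPM per kilobase, and the next, mt-Co1, at 73.1. Which strand the counts under the ribosomal gene names measured was not tested, so they are not shown to be expression of those genes.

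The stretches of genome upstream of genes that passed are shown beside each other. Mrps9 and Mrpl24 passed as lower at 24 hours than in spleen, and Mrpl9 as higher at 72 than at 24 hours. Mrpl9 was also estimated lower at 24 hours than in spleen (-2.74, edgeR adjusted p = 0.0646). Mrpl24 (0.63, adjusted p = 0.222) and Mrps9 (adjusted p = 0.262) were estimated higher at 72 than at 24 hours. None of these estimates passed. The 3 genes thus do not contrast a fall with a rise in the same comparison. The annotated start windows of RefSeq (GRCm38.p6, 250 bases before and 50 after the start) gave 75 windows for 69 of the 78 genes. The parts of the windows that lie before the start and outside every annotated exon are given 5′ to 3′, all on the plus strand, at chr1:42850983-42851232 for Mrps9, chr3:87919294-87919505 for Mrpl24 and chr3:94443086-94443317 for Mrpl9. Capitals mark a CCAAT box in Mrps9 and overlapping matches on both strands to the NRF1 core in Mrpl9, and Mrpl24 held no match to the motifs searched. Mrps7, whose upstream bases all lie in annotated exons, and Mrpl48, which has several annotated starts, are not shown.
Mrps9: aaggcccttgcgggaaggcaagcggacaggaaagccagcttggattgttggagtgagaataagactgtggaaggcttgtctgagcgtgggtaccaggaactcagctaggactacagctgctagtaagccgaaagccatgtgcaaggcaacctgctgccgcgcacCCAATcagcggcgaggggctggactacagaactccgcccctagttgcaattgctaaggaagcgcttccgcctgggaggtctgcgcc
Mrpl24: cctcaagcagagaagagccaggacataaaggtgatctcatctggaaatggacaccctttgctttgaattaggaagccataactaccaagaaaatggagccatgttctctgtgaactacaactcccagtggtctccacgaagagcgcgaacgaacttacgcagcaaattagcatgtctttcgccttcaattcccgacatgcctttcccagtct
Mrpl9: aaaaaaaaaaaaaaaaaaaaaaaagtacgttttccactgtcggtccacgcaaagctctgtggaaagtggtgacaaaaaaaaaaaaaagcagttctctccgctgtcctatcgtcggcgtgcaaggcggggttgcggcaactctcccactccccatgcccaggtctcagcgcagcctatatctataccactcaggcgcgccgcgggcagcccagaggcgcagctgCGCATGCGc

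The motifs were searched on both strands of the whole windows. The ETS core CCGGAAG was present in 26 of the 75 windows (34.7%), against 8.86% of 32851 windows of all genes. The NRF1 core GCATGCG, for a factor known to act on genes of mitochondrial function, was present in 8 (10.7%) against 3.58%, and the YY1 core ATGGCGG in 13 (17.3%) against 4.05%. The CCAAT box was in 30 (40.0%) against 37.4%, and TATAAA in 5 (6.67%) against 13.6%. These shares include genes that failed the level filter. Of the 47 windows of genes that passed it, 17 held the ETS core, 7 NRF1, 4 YY1, 16 the CCAAT box and 5 TATAAA. These are descriptions of the letters in the windows and not of binding.

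Other genes of mitochondrial translation were read from lists of its partners (translation factors, assembly factors, aminoacyl-tRNA synthetases, RNA factors and ribosomal proteins under other symbols), of which 44 of 68 were tested. At 24 hours against spleen 2 were higher and 3 lower (11.4%, against 9.75% of all genes), with a median of -0.22 over the list (all genes -0.23). Ddx28, a helicase of large-subunit assembly, rose (4.85, SE 0.84, adjusted p = 0.000771), as did Slirp, which stabilizes mitochondrial messenger RNA (0.64, SE 0.20, adjusted p = 0.0425). Tsfm, the elongation factor Ts (-1.51, SE 0.40, adjusted p = 0.0177), Tars2, the threonyl-tRNA synthetase (-1.56, SE 0.48, adjusted p = 0.0442), and Pnpt1, an RNA-degrading enzyme (-2.55, SE 0.75, adjusted p = 0.0336), fell. Slirp no longer passed in 9 of 22 alternatives, 7 of them leave-one-out fits (adjusted p up to 0.127), Tars2 in 9 of 23, Pnpt1 in 9 of 22 and Tsfm in 2 of 22, whereas Ddx28 passed in all 22. Without spleen replicate 3, Tars2 was at -0.69 (adjusted p = 0.363) and Pnpt1 at -1.61 (adjusted p = 0.229).

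Translation factors were among the genes that passed at 72 hours. Gfm1, the elongation factor G1, averaged 28.8 normalized CPM in spleen, 27.5 at 24 hours and 6.93 at 72 hours, and fell against both (-2.04, SE 0.41, adjusted p = 0.00322 against spleen, and -1.98, adjusted p = 0.00745 against 24 hours). Guf1, a translation factor of the LepA family, averaged 40.5, 25.3 and 7.00 and fell against both as well (-2.52, adjusted p = 0.00182, and -1.85, adjusted p = 0.0255). Mtrf1, a release factor, averaged 3.43, 0.300 and 0.130 and was lower at 72 hours than in spleen (adjusted p = 0.0435), a call lost in 8 of 22 alternatives, 6 of them leave-one-out fits (adjusted p up to 0.401). Against 24 hours the call of Guf1 was lost in 7 of 22 alternatives (adjusted p up to 0.141), and that of Gfm1 in none.

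Of the 12 translation factors tested, 1 fell at 24 hours, 3 at 72 hours and 2 between them, with 10, 11 and 7 estimates below 0, and none rose, where 9.75%, 5.33% and 4.49% of all genes passed in either direction. Nsun4, a methyltransferase of mitochondrial ribosome assembly, averaged 2.14, 2.87 and 12.4. It rose at 72 hours against both groups (2.50, adjusted p = 0.00843, and 2.10, adjusted p = 0.0252), the latter lost in 8 of 23 alternatives (adjusted p up to 0.0870). Ddx28 averaged 1.28, 40.2 and 14.5 and was also higher at 72 hours than in spleen (3.44, SE 0.82, adjusted p = 0.0123), which was lost without 72-hour replicates 2 and 3 (2.20, adjusted p = 0.209). Mterf4, which acts with Nsun4, averaged 91.0, 153 and 68.0 and fell between 24 and 72 hours (-1.17, adjusted p = 0.00414). In all, 1 partner gene rose and 3 fell between the liver groups (9.09%, against 4.49% of all genes), with a median of 0.15 (all genes 0.18), and at 72 hours against spleen 2 rose and 3 fell (11.4%, against 5.33%), with a median of -0.34 (all genes -0.02). None of the 4 ribosomal proteins under other symbols passed in any comparison. Exons of Ddx28, Slirp, Tsfm, Gfm1, Guf1 and Mterf4 overlap an opposite-strand gene, and those of Tars2, Pnpt1, Nsun4 and Mtrf1 do not.

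The listed genes of mitochondrial DNA encode the proteins that this ribosome makes and its own ribosomal RNAs, and 10 of 15 listed were tested. At 24 hours mt-Nd2, a complex I subunit, was higher than in spleen (1.61, adjusted p = 0.0222), and mt-Co1, a cytochrome oxidase subunit (-1.34, adjusted p = 0.0290), and the ribosomal RNAs mt-Rnr1 (-1.88, adjusted p = 0.0454) and mt-Rnr2 (-1.14, adjusted p = 0.0408) were lower. None of the 10 passed at 24 hours by edgeR without spleen replicate 1, without spleen replicate 2 or without 24-hour replicate 4. At 72 hours mt-Nd2 (2.88, adjusted p = 0.000173) and mt-Cytb, the cytochrome b gene (1.75, adjusted p = 0.00274), were higher than in spleen. Over all genes 9.75% passed at 24 hours and 5.33% at 72 hours, both against the spleen and in either direction. Between the liver groups 4.49% of all genes passed, with a median of 0.18 and 40.9% of estimates below 0. Between 72 and 24 hours all 10 estimates were above 0, with a median of 1.43, and 6 genes rose, namely mt-Co1, mt-Cytb, mt-Nd1, mt-Nd2, mt-Nd4 and mt-Rnr2, with log2 fold changes of 1.27 to 1.67. Of these, mt-Cytb and mt-Rnr2 passed in all 23 alternatives, while mt-Nd2 was lost in 11 of 23, mt-Nd1 and mt-Nd4 in 10 of 23 each, and mt-Co1 in 2 of 22. Without 72-hour replicates 2 and 3 the number that passed was 2. Per kilobase, mt-Nd6, the sole listed gene on the other strand of mitochondrial DNA, was at 1679 normalized CPM, whereas the 9 others ranged from 1.33 (mt-Co2) to 73.1 (mt-Co1).

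**Figure D5:**
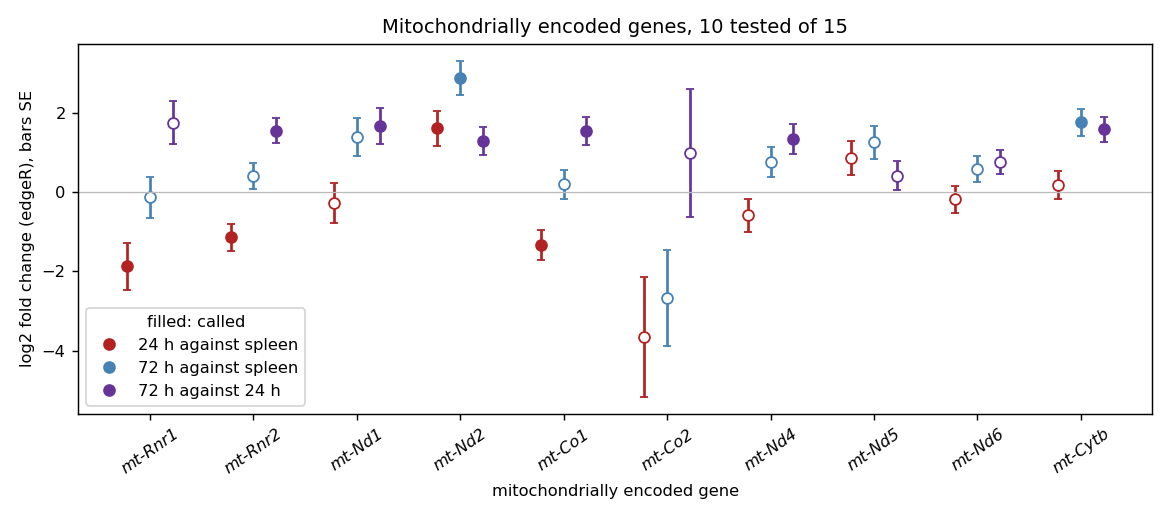
Fitted log2 fold changes of the 10 tested genes of mitochondrial DNA in the 3 comparisons, with their standard errors and filled points for those that passed the test. Between 72 and 24 hours all 10 estimates lie above 0 and 6 passed, where 40.9% of all genes tested were below 0 and 4.49% passed.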

How the data were processed

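RNA of sorted neutrophils was sequenced in 12 libraries. Per the submitters' processing notes reads were aligned with STAR 2.7.9a to GRCm38, and the authors counted them per gene with HTSeq-count. The deposited values are raw counts, in 48709 gene rows, all columns being mapped to samples by name. The strand setting is not given in the sources used here. Library sizes and tests exclude the 5 summary rows, in which the reads on no gene were 96.8% to 97.3% of uniquely aligned reads. Identifiers were matched to the GENCODE M21 annotation (48349 of 48709), from which opposite-strand overlaps of exons were taken.

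Genes with more than 1 CPM in at least 3 libraries (12488) were scaled by TMM and tested in R 4.3.3 by quasi-likelihood in edgeR 4.0.16, the 3 groups in 1 fit, with Benjamini-Hochberg adjustment over all genes. Thresholds were 0.05 for the adjusted p and 0.5 for the size of the log2 fold change. A floor of 3 counts was used for bounds. Counting intervals are exact, at 95%, and cover counting error only. Bounds and intervals compare group counts with normalized library sizes.

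Named were the genes that passed, the 3 of smallest p in each direction without an opposite-strand gene per comparison, the 6 of highest level per kilobase, the opposite-strand genes of these, and partner genes that passed. The genes of mitochondrial DNA and those of the closing observations fall outside this rule and were named with their values seen. The family, the lists and the tests were chosen with earlier results of these data known. Each script that tests genes was tested on simulated data. Alternatives were DESeq2 1.42.0 (size factors and Wald test), upper-quartile scaling, limma-voom (limma 3.58.1), no filter, filterByExpr, no fold limit, 2 groups only, a replicate block, genes without an opposite-strand gene, and leaving out libraries.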

Additional observations from a re-analysis of the deposited data

Results flagged for a closer look

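In 40 groups of 4 or 5 libraries of the named genes, a library far from the rest was looked for. Chance gives one in about 1 of 20 groups where values vary smoothly. Near 0 counts this rate does not hold, since a single library with a count stands apart whatever its size, as for Mrpl15 below. For Mrps15, 72-hour replicate 3 stood at 10.8 normalized CPM, with the next library at 6.51. For Mrpl15, 24-hour replicate 2 was at 1.80 (3 counts) and 72-hour replicate 4 at 0.695 (1 count), with the other libraries of each group at 0. For Mrps25, 24-hour replicate 4 was at 1278 normalized CPM, with the next at 1102, and this is the library with 147308 ambiguous reads, whose part in the value was not tested.

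The responses at 72 and 24 hours against the same spleen libraries differed for Mrpl9 (72 minus 24 hours 3.05 on the log2 scale, edgeR adjusted p = 0.0463) and for Mrpl48 (-0.99, adjusted p = 0.00822). Since the spleen term cancels in these differences, they are the same tests as the comparison of the liver groups.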

How the results depend on the processing

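With few counts on most genes, depth limits what single genes show. The rise of Mrps7 at 24 hours passed in all 22 alternatives (adjusted p up to 0.0146). The number of mitochondrial ribosomal protein genes that passed at 24 hours (3) was 0 among genes without an opposite-strand gene and 1 to 4 with 1 library left out, the 1 without spleen replicate 2 being Mrps7 and the 4 without spleen replicate 3 being Mrps7, Mrpl24, Mrpl9 and Mrpl47 (chosen after its values were seen). At 72 hours (0) it was 1 with limma-voom and 0 to 1 with 1 library left out (1 without 72-hour replicate 4). Between the liver groups (2) it was 1 with upper-quartile scaling, 1 with the replicate block, 0 among genes without an opposite-strand gene, 0 without 72-hour replicates 2 and 3, and 0 to 2 with 1 library left out (0 without 24-hour replicate 1).

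Medians at 24 hours (-0.64) were -0.0235 with filterByExpr, -1.05 among genes without an opposite-strand gene and -0.95 to -0.58 with 1 library left out. At 72 hours they were -0.22 to 0.05 with 1 library left out. Between the liver groups (0.51) they were -0.0800 with filterByExpr, 0.0844 without 72-hour replicates 2 and 3, and 0.22 to 0.74 with 1 library left out. Mrpl15 between the liver groups (-1.75) was 1.43 without 24-hour replicate 2 and -3.21 to 1.43 with 1 library left out.

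Partner genes that passed (5, 5 and 4) were 0, 3 and 0 among genes without an opposite-strand gene, 3 at 72 hours without 72-hour replicates 2 and 3, and 2 to 5, 1 to 7 and 2 to 4 with 1 library left out, the lowest being without 24-hour replicate 2 at 24 hours, without spleen replicate 2 at 72 hours, and without 24-hour replicates 1 or 2 or 72-hour replicate 3 between the liver groups. Genes of mitochondrial DNA, an alternative added after seeing the data, numbered 4, 2 and 6. At 24 hours they were 0 with limma-voom, 2 with the replicate block, and 1 each among genes without an opposite-strand gene and with 2 groups only. At 72 hours they were 4 with no filter, and between the liver groups 2 among genes without an opposite-strand gene and 2 without 72-hour replicates 2 and 3. With 1 library left out they were 0 to 4, 2 to 3 and 2 to 7. The cause of these changes was not tested.

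Replicate numbers did not pair the libraries, with correlations of same-numbered deviations of -0.117 to 0.131 and 2 of 10 libraries closest to their own number, and with the replicate block 2 ribosomal genes passed at 24 hours and 4, 5 and 3 partner genes. Over all genes, those that passed numbered 399 to 1544 at 24 hours (main 1218), 287 to 966 at 72 hours (666) and 84 to 951 between the liver groups (561). Without spleen replicates 1 or 2 they were 575 and 611 at 24 hours and 322 and 314 at 72 hours, without 72-hour replicates 2 and 3 together 287 at 72 hours and 197 between the liver groups, and without 24-hour replicate 1 182 between the liver groups. Upper-quartile scaling moved the share called higher from 54.8% to 63.2% at 24 hours and from 36.7% to 25.6% between the liver groups.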

Other observations

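The genes in this paragraph were chosen after their values were seen. Among opposite-strand genes of other mitochondrial ribosomal protein genes, Mapk8ip3, a scaffold of JNK signalling beside Mrps34, was lower at 24 hours than in spleen (-0.95 on the log2 scale, edgeR adjusted p = 0.0267), and Gcfc2, beside Mrpl19, was lower at 72 hours than in spleen (-2.59, adjusted p = 0.0196). Mrpl47, a large-subunit protein, had 72.8, 69.2 and 42.1 normalized CPM in spleen and 25.9, 33.6, 53.0 and 28.4 at 24 hours, and it passed at 24 hours in fits without spleen replicate 3 (-1.01, adjusted p = 0.0312) or without 24-hour replicate 3 (-1.06, adjusted p = 0.0277), the libraries in which the groups overlap. Mrps15 likewise passed without 24-hour replicate 3, at 24 hours against spleen (-2.69, adjusted p = 0.0250) and at 72 against 24 hours (2.65, adjusted p = 0.0371).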
